A study of Mus musculus with 24 samples.

Results

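Oxidative phosphorylation was followed in the kidney of mice through the genes for the subunits of its 5 enzyme complexes. Members were the protein-coding rows of the deposited table whose symbols begin with Ndufa, Ndufb, Ndufc, Ndufs or Ndufv and a digit, Uqcr, Cox4 to Cox8, or Atp5, together with Sdha to Sdhd and the mt- genes for NADH dehydrogenase, cytochrome b, cytochrome c oxidase and ATP synthase subunits. The rule used names only. It found 94 members among 14785 rows, 81 encoded in the nucleus and 13 in mitochondrial DNA. All 24 libraries came from male C57/BL6 mice aged 8 to 9 weeks at the start, with 4 animals in each of 6 groups, and polyA RNA of cortical kidney was sequenced. Sham animals had surgery without obstruction. In unilateral ureter obstruction (UUO) the ureter of 1 kidney was tied for 2 days (UUO2) or 7 days (UUO7). For the recovery groups R1W, R2W and R4W the obstruction was reversed after 7 days, and the kidney was taken 1, 2 or 4 weeks later. R4W replicate 2 is placed at 2 weeks by its treatment label and at 4 weeks by its title, and was grouped by the title.

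Complexes I to IV pass electrons from NADH and succinate to oxygen, complexes I, III and IV pump protons across the inner mitochondrial membrane as they do so, and complex V, the ATP synthase, uses the proton gradient to make ATP. Mitochondrial DNA encodes the membrane cores of complexes I, III, IV and V, while complex II and all other subunits are encoded in the nucleus and imported. The proximal tubule, which makes up much of the cortex, reabsorbs solutes with ATP made almost wholly by oxidative phosphorylation.

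Of the 13 mt- genes, 6 have a near-identical row elsewhere in the table, and their values cannot be read without it. These copies are annotated as pseudogenes and lie side by side on the minus strand of chromosome 1, between 24612407 and 24616197 (GRCm38). Gm28661 matched mt-Co2 at 681 of 681 aligned bases, Gm10925 matched mt-Atp6 at 678 of 678, Gm28437 matched mt-Co3 at 783 of 783, Gm28438 matched mt-Nd3 at 342 of 342 and Gm10222 matched mt-Nd4l at 294 of 294. Gm29216 covers 31.3% of mt-Co1 and matched it at 482 of 483 bases. The first 90 bases of mt-Co2 are shown with the same stretch of its copy, because no read from this stretch can tell them apart, and 90 bases of mt-Co1 are shown with the single difference in capitals. All are from GRCm38 and written 5′ to 3′ on the strand of the gene.
mt-Co2, chrM:7013-7102, plus strand: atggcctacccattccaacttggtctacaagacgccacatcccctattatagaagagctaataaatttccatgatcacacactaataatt
Gm28661, chr1:24615476-24615565, minus strand: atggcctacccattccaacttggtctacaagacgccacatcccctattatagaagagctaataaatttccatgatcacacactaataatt
mt-Co1, chrM:6390-6479, plus strand: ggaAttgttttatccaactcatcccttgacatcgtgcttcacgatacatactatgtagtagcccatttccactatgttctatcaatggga
Gm29216, chr1:24616099-24616188, minus strand: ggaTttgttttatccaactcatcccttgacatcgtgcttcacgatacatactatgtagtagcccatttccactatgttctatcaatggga

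How the deposited values split between gene and copy differed between groups. The deposited values are taken as FPKM, fragments scaled to transcript length and library size, a unit read from how they behave. mt-Co2, a core subunit of cytochrome c oxidase, stood at 6725, 5658, 5426 and 6254 FPKM in Sham and at 28420, 26089.9, 29637 and 27338 FPKM in UUO2. Its copy Gm28661 stood at 26273, 24058, 26216 and 27677 FPKM in Sham and at 1719, 2343, 36.3 and 0.01 FPKM in UUO2. The 4 UUO2 libraries were therefore far above Sham for the gene and far below it for the copy, with no overlap in either. Added up over length, gene and copy gave 32883, 29610.2, 31527 and 33809.7 FPKM in Sham and 30131, 28422, 29673 and 27338 FPKM in UUO2, and these ranges overlapped. The copy held 81.2% ± 1.35 (SD, n = 4) of the summed mt-Co2 fragments in Sham, 3.50% ± 4.11 in UUO2, 59.4% ± 6.62 in UUO7 and 79.5% ± 3.52 in R4W. In the fit of single genes (limma on log2(FPKM + 1)), mt-Co2 as deposited was 2.21 higher on the log2 scale in UUO2 than in Sham (SE 0.21, adjusted p = 5.86e-08), whereas the sum was 0.14 lower (SE 0.13, adjusted p = 0.378). mt-Co3 behaved likewise, with 1.35 higher as deposited and 0.10 lower in the sum (SE 0.17 and 0.11). For other genes the split moved towards the copy. The mean share of the copy rose from Sham to UUO2 from 77.6% to 89.0% for mt-Atp6, from 39.6% to 67.2% for mt-Nd3 and from 46.3% to 75.0% for mt-Nd4l. For mt-Co1 it was 5.69% and 10.0%, with overlapping libraries. The submitters' design text names 20 libraries multiplexed on 3 lanes, whereas 24 samples are given, and it does not say which 4 are not among the 20. Whether the UUO2 libraries were made or processed apart was not tested, and any such difference cannot be told apart from the group. The mt- genes are therefore given below with their copies added, a choice made after these values were seen, and beside the 7 mt- genes that have no copy.

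**Figure D1:**
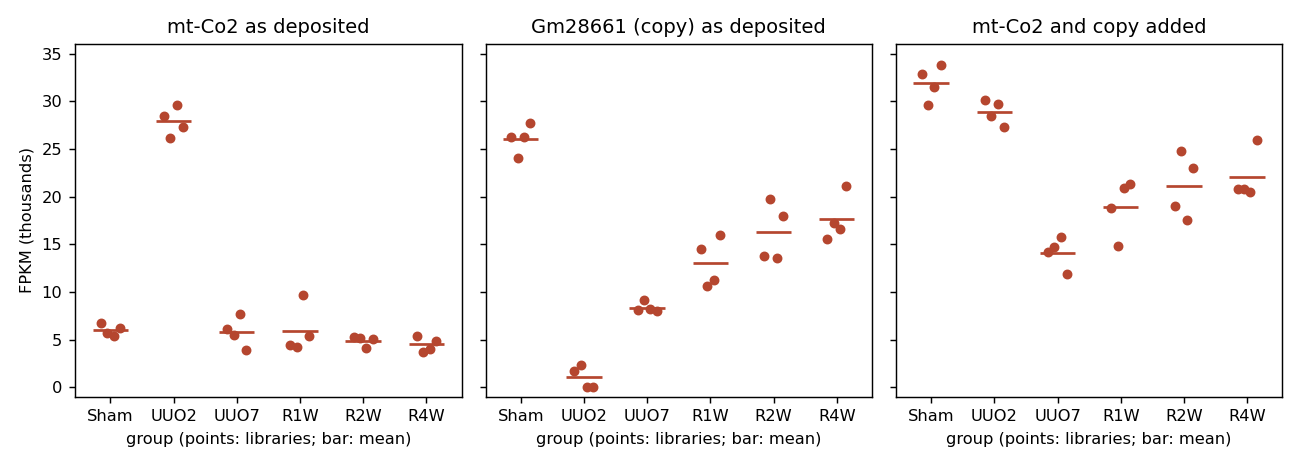
FPKM, in units of 1000, of mt-Co2, of its copy Gm28661 and of both added, by group, with 1 point per library and a bar at the mean. UUO2 stands apart in the first 2 panels, and in the third its libraries lie between 27338 and 30131 FPKM, within or just below the Sham range.

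In levels, the 2 genomes were far apart. In Sham the mt- genes with copies added ranged from 3618 ± 250 FPKM (SD, n = 4) for mt-Nd5 to 31958 ± 1824 FPKM for mt-Co2, all above the highest nuclear gene. That gene was Atp5b, the catalytic beta subunit of ATP synthase, at 2479 ± 54.9 FPKM. Cox8a followed at 1658 ± 52.0 FPKM and Cox6a1 at 1606 ± 31.4 FPKM, and these neighbours overlapped between libraries. The lowest nuclear members were Cox4i2 at 1.03 ± 0.22 FPKM and Cox6a2 at 2.35 ± 0.54 FPKM, apart from Cox8b, which stood at 0, 0.41 and 0 FPKM in 3 Sham libraries and at 15.3 FPKM in replicate 2.

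Both sets were lower after 7 days of obstruction, the mt- set by more. A set's score averages log2(FPKM + 1) across all of its members and is given here as a description with no test. The mt- score with copies added was 13.46, 13.37, 13.45 and 13.53 in Sham, 11.96, 12.06, 11.93 and 11.77 in UUO7, and 12.78, 12.88, 12.75 and 13.11 in R4W. The nuclear score was 8.12, 8.15, 8.06 and 8.14 in Sham, 7.77, 7.69, 7.86 and 7.60 in UUO7, and 7.92, 7.82, 7.77 and 7.89 in R4W. Neither UUO7 nor R4W overlapped Sham in either score. The nuclear mean was 7.91 ± 0.09 (SD, n = 4) in UUO2, 7.96 ± 0.20 at R1W, 7.90 ± 0.13 at R2W and 7.85 ± 0.07 at R4W, so it was no higher at 4 weeks than at 1 week, and its highest R1W and R2W libraries (8.11 and 8.07) reached into the Sham range. The mt- mean was 13.32 ± 0.16 in UUO2, 12.57 ± 0.16 at R1W, 12.75 ± 0.26 at R2W and 12.88 ± 0.16 at R4W. The mt- score minus the nuclear score is hardly touched by how libraries are scaled against each other. It lay between 5.22 and 5.39 in Sham, between 5.15 and 5.69 in UUO2, and between 4.07 and 4.37 in UUO7. After reversal it lay between 4.51 and 4.70 at R1W, between 4.68 and 5.01 at R2W and between 4.86 and 5.22 at R4W. UUO7 was below all other groups without overlap, R1W was below Sham without overlap, and the highest R4W library just reached the lowest Sham library. That Sham library was replicate 2, where the nuclear member Cox8b stood at 15.3 FPKM against at most 0.41 FPKM in the others of Sham. This raises its nuclear score, and the difference without Cox8b was not tested. The 13 mt- genes and their 6 copies held 23.2% ± 0.72 (SD, n = 4) of all summed FPKM in Sham, 20.4% ± 1.64 in UUO2, 9.44% ± 0.66 in UUO7. After reversal this share was 13.9% ± 1.29 at R1W, 15.6% ± 2.26 at R2W and 17.1% ± 1.96 at R4W. The 81 nuclear genes held 5.04% ± 0.08 in Sham, 4.20% ± 0.26 in UUO2, 3.73% ± 0.21 in UUO7, 4.45% ± 0.46 at R1W, 4.35% ± 0.39 at R2W and 4.24% ± 0.18 at R4W. In bulk tissue, fewer cells of a type and less RNA per cell cannot be told apart.

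**Figure D2:**
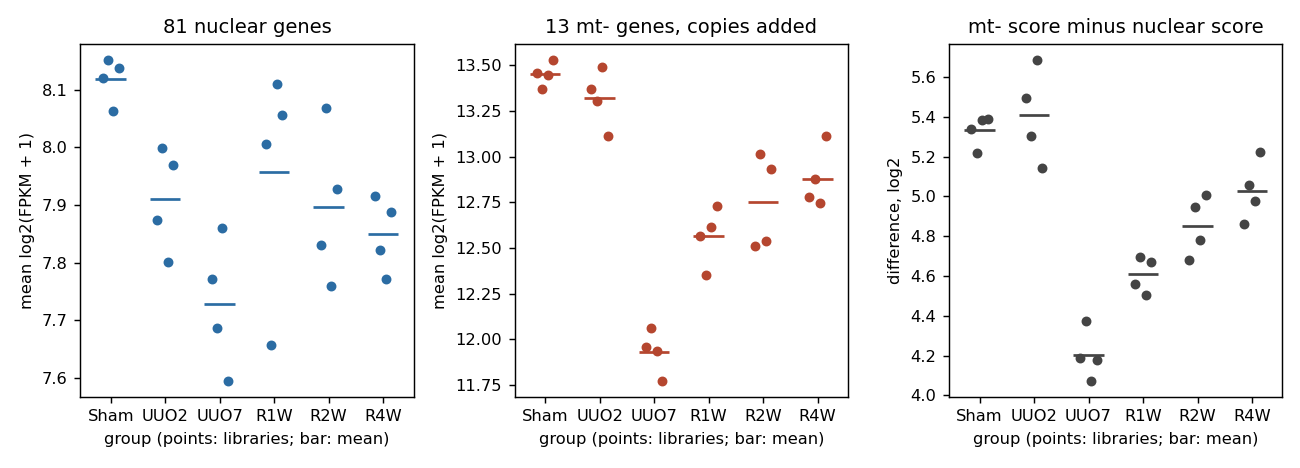
Mean log2(FPKM + 1) of the 81 nuclear genes, of the 13 mt- genes with their copies added, and the difference of both, by group, with 1 point per library and a bar at the mean. The difference falls from a mean of 5.33 in Sham to 4.20 in UUO7 and stands at 5.03 in R4W.

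FPKM is relative to the whole library, and the middle of the distribution differed between groups. Against Sham, the median log2 difference of all 14785 genes was 0.42 for UUO7, 0.37 for R1W, 0.32 for R2W, 0.30 for R4W and 0.09 for UUO2. Counts of genes called at an adjusted p under 0.05 are therefore given on the deposited scale and after rescaling, in which each library was divided by the median of its genes' ratios to their own geometric means. Rescaling sets that median to 0.01 in UUO7 against Sham. The share of all genes called in the same direction stands beside each comparison's first count. With mt- genes and copies added, the fit held 14779 rows.

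At 7 days of obstruction all 13 mt- genes with copies added were lower than in Sham, where 17.8% of all genes in that fit were lower. As deposited, 12 of 13 were lower on the deposited scale, where 17.8% of 14785 genes were lower and 60.1% higher, and 13 of 13 were lower after rescaling, where 36.5% were lower and 36.5% higher. The exception on the deposited scale was mt-Co2, whose reads are split with its copy. The median log2 difference of the 13 genes was -1.44 on the deposited scale. mt-Nd5, a proton-pumping subunit of complex I with no copy, stood at 3686, 3249.6, 3791 and 3748 FPKM in Sham and at 798, 923, 794 and 817 FPKM in UUO7. Its UUO7 libraries lay far below all Sham libraries, a fall of 2.12 on the log2 scale (SE 0.16, adjusted p = 3.07e-10). mt-Cytb, the haem-bearing core of complex III, stood at 14597, 14108, 14469.6 and 15492 FPKM in Sham and at 5465, 5918, 5477 and 4643 FPKM in UUO7. It also did not overlap, and fell by 1.45 (SE 0.13, adjusted p = 5.56e-09).

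mt-Nd4l with its copy, mt-Atp8 and mt-Nd5 fell by 2.34 (SE 0.19), 2.24 (SE 0.19) and 2.12 (SE 0.16) on the log2 scale. The other 10 genes fell by 1.07 (mt-Nd1, SE 0.14) to 1.48 (mt-Nd4, SE 0.13), among them the pooled mt-Co2 and mt-Co1, both by 1.18 (SE 0.13 and 0.11), and mt-Atp6 and mt-Co3, by 1.38 and 1.34 (both SE 0.11). mt-Nd6, the member read from the other strand of mitochondrial DNA, fell by 1.46 (SE 0.12), within the range of the rest. In R1W the same 3 genes were the lowest of the 13, at -1.42, -1.32 and -1.37 against Sham. By R4W they stood at -0.69, -0.61 and -0.73, against -0.42 to -0.66 for the other 10. UUO7, R1W and R4W were each set against the same Sham libraries.

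**Figure D3:**
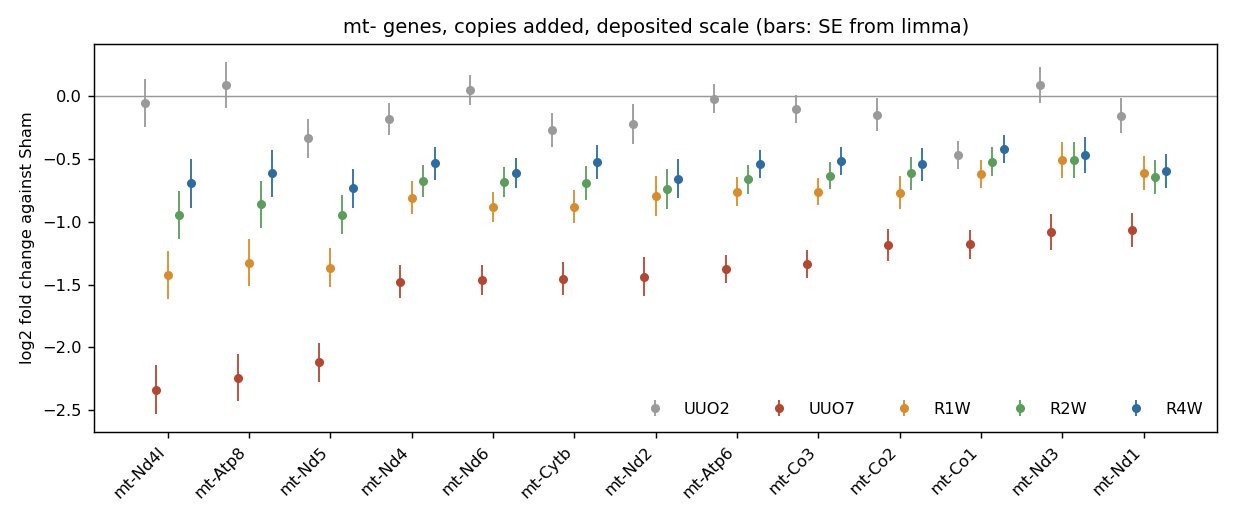
Log2 fold change against Sham of the 13 mt- genes, copies added, on the deposited scale for each of the other 5 groups, with the SE from limma, ordered by their change in UUO7. mt-Nd4l, mt-Atp8 and mt-Nd5 lie lowest in UUO7, at -2.34, -2.24 and -2.12, and UUO2 lies near 0 for most genes.

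At 2 days of obstruction few mt- genes were called against Sham. With copies added, 1 of 13 was lower, against 16.9% of all genes in that fit. That gene was mt-Co1, at -0.47 (SE 0.11, adjusted p = 0.00187). Of the 7 genes without a copy, 0 were called on the deposited scale and 2 were lower after rescaling: mt-Cytb at -0.40 (adjusted p = 0.0482) and mt-Nd5 at -0.47 (adjusted p = 0.0345). As deposited, 4 mt- genes were lower and 2 higher, against 17.0% of all genes lower and 32.3% higher. After rescaling 6 were lower and 2 higher, against 25.5% and 25.3%. The 2 higher ones were mt-Co2 and mt-Co3, and neither was called in the sum with its copy. Of the nuclear genes 36 of 81 were lower and 4 higher on the deposited scale, and 41 were lower and 1 higher after rescaling. Their median log2 difference was -0.25, and -0.37 after rescaling, beside -0.18 and -0.32 for the 7 mt- genes without a copy. The difference between the sets was not tested. Sdhb, the iron-sulfur subunit of complex II, stood at 229, 284, 216 and 217 FPKM in UUO2 against 382, 338, 369 and 387 FPKM in Sham, a fall of 0.65 (SE 0.12, adjusted p = 1.1e-04). Ndufa10, an accessory subunit of complex I, stood at 105, 128, 105 and 106 FPKM against 184, 185, 205 and 182 FPKM, a fall of 0.77 (SE 0.11, adjusted p = 1.27e-05). Neither gene overlapped between the groups. The 4 higher genes on the deposited scale were Ndufa7, Ndufb7, Atp5g2 and Cox6b2, and Cox6b2 was the 1 that stayed called after rescaling.

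In UUO7 the nuclear genes were mostly lower. On the deposited scale 58 of 81 were lower and 6 higher than in Sham, with a median of -0.42, and after rescaling 74 were lower and 3 higher, with a median of -0.90. These counts stand against the 17.8% and 36.5% of all genes that were lower.

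Complex I, which takes electrons from NADH, had 24 of its 35 nuclear genes lower and 1 higher, with a median of -0.37. Ndufa10 moved most. It stood at 77.2, 71.4, 72.05 and 70.7 FPKM in UUO7, which is below all 4 Sham libraries, and fell by 1.36 (SE 0.11, adjusted p = 1.3e-09). Ndufs1 and Ndufv1, which carry the iron-sulfur clusters and the flavin that receive the electrons, fell by 0.84 (SE 0.12, adjusted p = 1.5e-06) and 0.86 (SE 0.10, adjusted p = 1.02e-07). Ndufa7 was the higher gene, at 0.34 (SE 0.07, adjusted p = 1.42e-04), and after rescaling it stood at -0.15 with an adjusted p of 0.123. After rescaling 34 of 35 were lower.

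Complex II, which takes electrons from succinate and also serves the citric acid cycle, had all 4 genes lower on either scale, with a median of -0.87. Sdhb stood at 177, 189, 183 and 166 FPKM in UUO7 and fell by 1.04 (SE 0.12, adjusted p = 6.8e-08), well clear of the Sham range. Sdha, the flavin-bearing subunit, fell by 0.84 (SE 0.09, adjusted p = 5.48e-08), and Sdhc, a membrane anchor, by 0.61 (SE 0.11, adjusted p = 3.52e-05).

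Complex III, which passes electrons to cytochrome c, had 7 of its 8 nuclear genes lower and 0 higher, with a median of -0.51. Uqcrfs1, the Rieske iron-sulfur protein, stood at 324, 297, 313 and 319 FPKM in Sham and at 149.97, 148, 152 and 127 FPKM in UUO7. The groups were well apart, and it fell by 1.12 (SE 0.10, adjusted p = 6.37e-09). Uqcrc1, a core protein, fell by 0.90 (SE 0.10, adjusted p = 6.68e-08). Uqcrh, the hinge protein, stood at -0.21 (SE 0.11, adjusted p = 0.0939) and was called lower after rescaling, at -0.69.

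Complex V had 14 of its 16 nuclear genes lower and 1 higher, with a median of -0.56. Atp5b stood at 2541, 2424, 2443 and 2509 FPKM in Sham and at 1163, 1160.3, 1113 and 1072 FPKM in UUO7, with no overlap, and fell by 1.14 (SE 0.11, adjusted p = 1.09e-08). Its partner in the catalytic head, Atp5a1, fell by 0.96 (SE 0.10, adjusted p = 3.9e-08). The c-ring of the rotor is one protein encoded by 3 genes. Atp5g3 and Atp5g1 fell by 0.59 (SE 0.12, adjusted p = 1.04e-04) and 0.73 (SE 0.11, adjusted p = 4.59e-06). Atp5g2 stood at 9.98 ± 1.81 FPKM (SD, n = 4) in Sham and 15.7 ± 2.42 FPKM in UUO7, higher by 0.61 (SE 0.15, adjusted p = 0.00109), and was not called after rescaling, at 0.16 (adjusted p = 0.332). The pseudogene row Gm10175, all of whose 31-base words occur in Atp5g2, stood at 347 FPKM in Sham and 428 FPKM in UUO7, so the level of Atp5g2 is uncertain.

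Complex IV, cytochrome c oxidase, had the most genes called higher, with 9 of its 18 nuclear genes lower and 4 higher on the deposited scale (median -0.30) and 13 lower and 3 higher after rescaling (median -0.79). Ndufa4, long counted with complex I and placed here as a subunit of complex IV, and Cox5a, which sits next to the matrix, fell by 0.64 (SE 0.12, adjusted p = 5.25e-05) and 0.39 (SE 0.12, adjusted p = 0.0047). Among the nuclear genes the 4 higher ones were Cox6b2, Ndufa4l2, Cox4i2 and Cox7a2l. Values of 3 further members are also split with pseudogene rows that hold the same letters. Cox7c stood at 770 FPKM in Sham and 711 FPKM in UUO7 and its row Gm12338 at 1335 FPKM and 1538 FPKM. Ndufb4 stood at 88.6 FPKM and 80.0 FPKM and its row Gm3244 at 547 FPKM and 376 FPKM. Atp5l stood at 842 FPKM and 648 FPKM and its row Gm10221 at 201 FPKM and 101 FPKM.

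**Figure D4:**
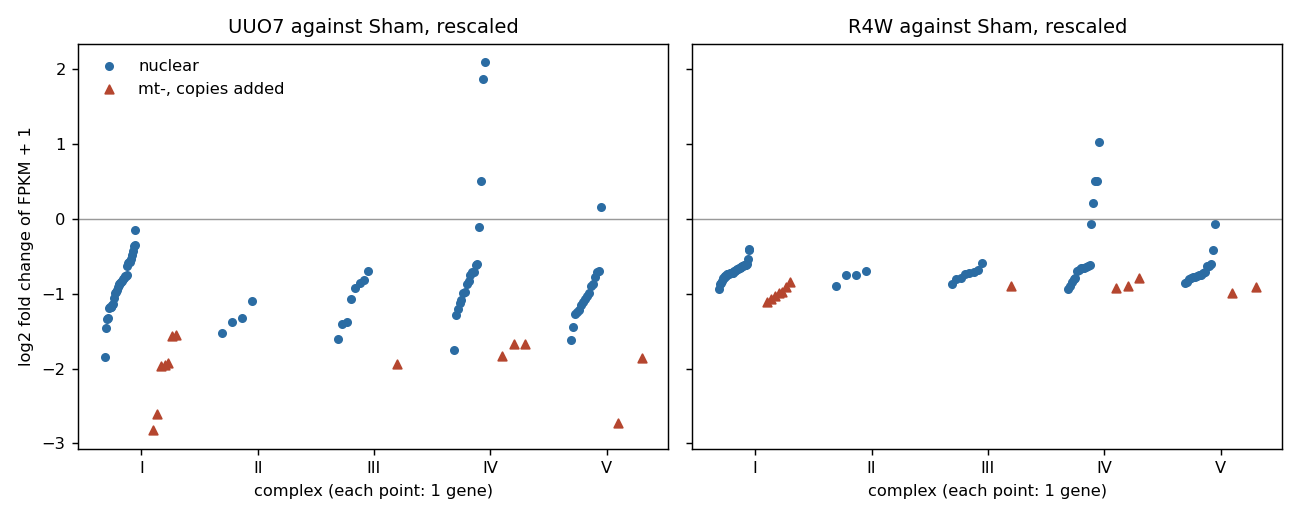
Log2 fold change of each member against Sham after rescaling, for UUO7 and R4W, by complex, with nuclear genes as circles and mt- genes with copies added as triangles. In UUO7 the triangles have a median of -1.92 and the circles of -0.90, and 2 circles of complex IV, Ndufa4l2 and Cox6b2, stand at 2.09 and 1.87. The highest circle in R4W is Cox8b, which was not called.

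Several subunits of complex IV exist as a widely expressed form and a form restricted to some tissues, and both forms of each pair are given side by side, with no test of their difference. Cox6b2, the testis form of the subunit that bridges the dimer, stood at 9.84, 17.55, 11.0 and 12.8 FPKM in Sham, 24.6, 34.3, 21.0 and 35.9 FPKM in UUO2 and 63.2, 64.4, 77.2 and 64.4 FPKM in UUO7. Each group lay above the one before without overlap, and the rise in UUO7 was 2.33 (SE 0.21, adjusted p = 3e-09). Its common form Cox6b1 stood at 904.5 ± 17.7 FPKM (SD, n = 4) in Sham and 840.2 ± 151 FPKM in UUO7, a difference of -0.12 (SE 0.12, adjusted p = 0.341) that became -0.61 after rescaling (adjusted p = 5.74e-04). Ndufa4l2, a paralog of Ndufa4 known as a target of hypoxia-inducible factor, stood at 2.40, 4.27, 2.52 and 2.91 FPKM in Sham and 20.4, 17.4, 23.5 and 24.7 FPKM in UUO7. All UUO7 libraries were above all Sham libraries, and it rose by 2.49 (SE 0.19, adjusted p = 4.25e-10). Cox4i2, a form of subunit 4 known from lung and from hypoxia, stood at 0.76, 1.29, 1.09 and 0.96 FPKM in Sham and at 2.54, 2.07, 3.01 and 2.40 FPKM in UUO7, without overlap, and rose by 0.79 (SE 0.15, adjusted p = 6.18e-05). Its common form Cox4i1 fell by 0.26 (SE 0.10, adjusted p = 0.0257), a call that was lost without Sham replicate 2 or 4 or without UUO7 replicate 2 or 4 (-0.25, -0.25, -0.20 and -0.23) and that held after rescaling at -0.75 (adjusted p = 2.24e-05).

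Of the muscle forms Cox7a1 and Cox6a2 were called lower. Mylpf, the 1 of 7 listed striated muscle markers with a row, was also called lower, at -0.58, with overlapping libraries of 1.72 to 4.01 FPKM in Sham and 1.02 to 1.85 FPKM in UUO7, and its part was not tested. Cox7a1, the heart and muscle form of subunit 7a, stood at 52.4, 57.8, 56.2 and 60.9 FPKM in Sham and at 21.8, 21.5, 26.8 and 21.3 FPKM in UUO7, without overlap, and fell by 1.28 (SE 0.19, adjusted p = 3.89e-06). Its common form Cox7a2 fell by 0.80 (SE 0.09, adjusted p = 4.74e-08). Cox7a2l, a gene related to both, was higher by 0.38 (SE 0.10, adjusted p = 0.00208), and stood at -0.11 after rescaling (adjusted p = 0.249). Cox6a2, the muscle form of subunit 6a, fell by 0.68 (SE 0.21, adjusted p = 0.00667) at a level of 1.12 ± 0.54 FPKM (SD, n = 4) in UUO7, and its common form Cox6a1 fell by 0.34 (SE 0.12, adjusted p = 0.0124). Cox8a, the common form of subunit 8, fell by 0.50 (SE 0.10, adjusted p = 1.67e-04).

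**Figure D5:**
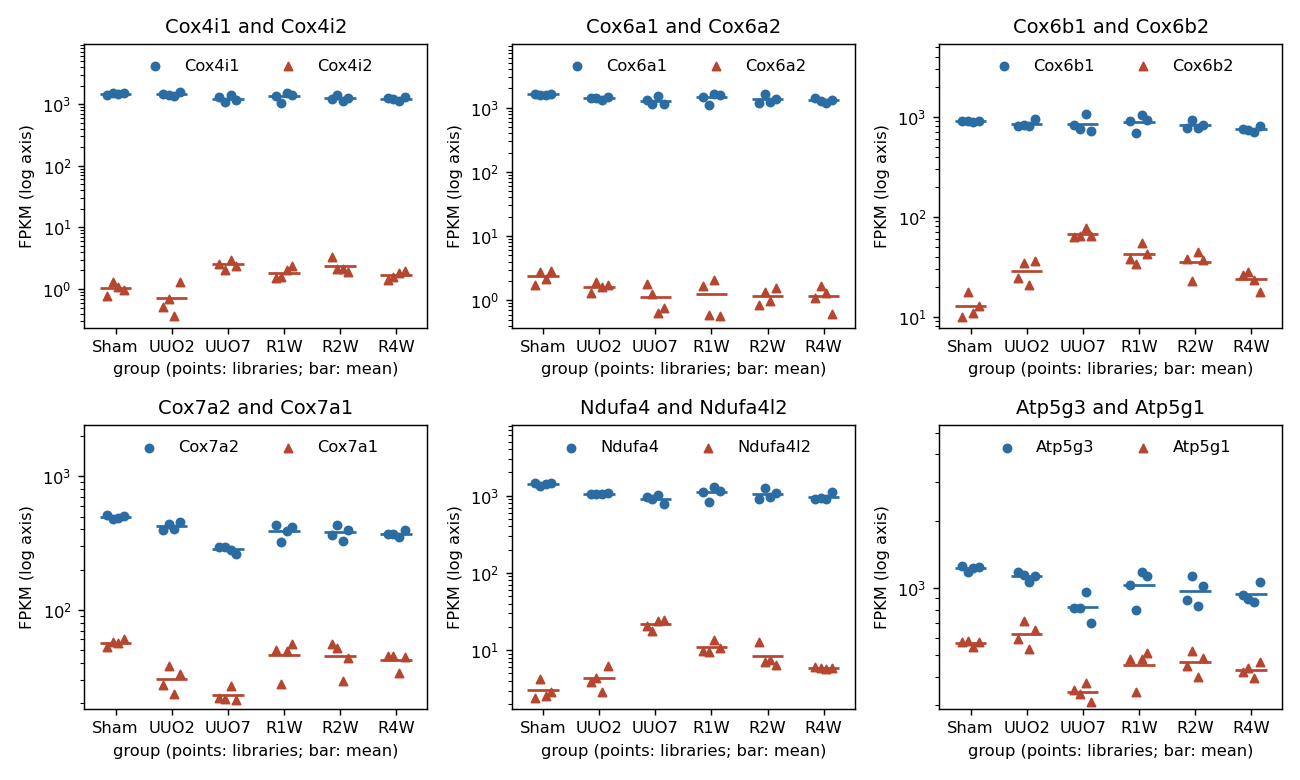
FPKM on a log axis of 6 pairs of related genes by group, with 1 point per library and a bar at the mean. Cox6b2 and Ndufa4l2 peak in UUO7, at 63.2 to 77.2 and 17.4 to 24.7 FPKM, and the mean of Cox7a1 is lowest there, with libraries at 21.3 to 26.8 FPKM.

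Cox8b, the form of subunit 8 found in muscle and brown fat, was near 0 in most libraries and called in 0 of the 7 comparisons. It stood at 15.3 FPKM in Sham replicate 2 and at 72.2 FPKM in R4W replicate 1, at 3.50 FPKM in R4W replicate 3 and at no more than 0.59 FPKM elsewhere. Adipose markers were high in the same libraries. Adipoq, the fat-cell hormone adiponectin, stood at 12.5 FPKM in Sham replicate 2, 79.7 FPKM in R4W replicate 1 and 25.6 FPKM in R4W replicate 3. Cidea, a marker of brown fat, stood at 9.41, 39.0 and 0.48 FPKM in these libraries. Over the 6 adipose markers with a row the summed level was 299 FPKM in Sham replicate 2, 1705 FPKM in R4W replicate 1 and 418 FPKM in R4W replicate 3, with the other Sham and R4W libraries between 40.4 and 69.9 FPKM. The same sum lay between 136 and 193 FPKM in UUO7 and between 85.05 and 151 FPKM in R1W, where Cox8b stood at no more than 0.54 FPKM. The part of these markers in the values of Cox8b was not tested.

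After reversal both sets held genes that were higher than in UUO7. In R1W against UUO7, 13 of 13 mt- genes with copies added were higher, against 6.48% of all genes in that fit, and 12 of 13 after rescaling, where mt-Co2 with its copy was not called (0.45, adjusted p = 0.0615). As deposited, 9 were higher and 0 lower, on both scales. Of the nuclear genes 27 were higher and 2 lower on the deposited scale, where 6.47% of all genes were higher and 8.04% lower. After rescaling 19 were higher and 2 lower, where 7.26% were higher and 7.14% lower. mt-Nd5 stood at 1547, 1412, 1151 and 1528 FPKM in R1W, above every UUO7 library and below every Sham library, and rose by 0.75 over UUO7 (SE 0.16, adjusted p = 0.00425). mt-Nd4 and mt-Cytb rose by 0.67 (SE 0.13, adjusted p = 0.00299) and 0.57 (SE 0.13, adjusted p = 0.00887). Sdhb stood at 279, 202, 249.9 and 284 FPKM in R1W and rose by 0.49 (SE 0.12, adjusted p = 0.00907), Uqcrfs1 by 0.60 (SE 0.10, adjusted p = 0.00146), Ndufs1 by 0.58 (SE 0.12, adjusted p = 0.0038) and Cox7a1 by 0.93 (SE 0.19, adjusted p = 0.00414). The 2 lower genes were Cox6b2, at -0.68 (SE 0.21, adjusted p = 0.0311), and Ndufa4l2, at -0.92 (SE 0.19, adjusted p = 0.00401). The call of Cox6b2 was lost on leaving out any 1 of 6 of the 8 libraries, with the difference then between -0.71 and -0.58.

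R1W replicate 2 was the lowest of its group in both measures given here. Its nuclear score was 7.66 against 8.01, 8.11 and 8.06 in the other 3 libraries, and its summed proximal tubule markers were 14602 FPKM against 23556 to 27060 FPKM. Without it 51 nuclear genes were higher than in UUO7 and 1 lower. Leaving out UUO7 replicate 4, R1W replicate 1 or R1W replicate 4 left 13, 16 and 14 higher and 1 lower each.

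Against Sham, R1W still had 13 of 13 mt- genes with copies added lower, where 14.7% of all genes in that fit were lower. As deposited 11 were lower on the deposited scale and 13 after rescaling. Of the nuclear genes 31 were lower and 6 higher on the deposited scale, against 14.7% and 59.4% of all genes, and 71 were lower and 2 higher after rescaling, against 34.6% and 33.7%. R2W had 13 of 13 mt- genes with copies added lower, against 12.9% of all genes in that fit. As deposited 12 were lower on the deposited scale and 13 after rescaling. There 43 nuclear genes were lower and 5 higher on the deposited scale, against 12.9% and 56.1% of all genes, and 74 were lower and 3 higher after rescaling, against 32.5% and 31.1%.

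At 4 weeks neither set had returned to the Sham level. With copies added 13 of 13 mt- genes were lower than in Sham, against 11.6% of all genes in that fit, with a median of -0.54. As deposited 11 were lower on the deposited scale and 13 after rescaling. Of the nuclear genes 60 were lower and 4 higher on the deposited scale, against 11.6% and 54.8% of all genes. After rescaling 75 were lower and 2 higher, against 31.1% and 28.9%, with a median of -0.71. mt-Nd5 stood at 1912, 2402, 1927 and 2524 FPKM in R4W, still below every Sham library, at -0.73 against Sham (SE 0.16, adjusted p = 4.02e-04). mt-Cytb stood at 9675, 9812, 9509 and 12001 FPKM, also without overlap with Sham, at -0.52 (SE 0.13, adjusted p = 0.00205). Sdhb stood at 258, 236, 253 and 277 FPKM, below every Sham library, at -0.53 (SE 0.12, adjusted p = 5.41e-04). Ndufa10 was at -0.56 (SE 0.11, adjusted p = 2.42e-04). Cox6b2 and Ndufa4l2 remained higher than in Sham, by 0.86 (SE 0.21, adjusted p = 0.00113) and 0.80 (SE 0.19, adjusted p = 9.45e-04). Ndufa4l2 stood at 6.13, 5.86, 5.74 and 5.95 FPKM in R4W, above every Sham library.

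Few genes of either set were called between 1 and 4 weeks of recovery. In R4W against R1W 3 of 13 mt- genes with copies added were higher, against 5.07% of all genes in that fit: mt-Nd5 by 0.63 (SE 0.16, adjusted p = 0.0108), mt-Atp8 by 0.71 (SE 0.19, adjusted p = 0.0143) and mt-Nd4l with its copy by 0.73 (SE 0.19, adjusted p = 0.0153). The first 2 were called as deposited on both scales, with 0 mt- genes lower. Of the nuclear genes 12 were lower and 2 higher on the deposited scale, against 14.1% and 5.06% of all genes. After rescaling 2 were lower and 1 higher, against 8.60% and 8.67%. The 2 higher nuclear genes were Ndufa10 at 0.34 (SE 0.11, adjusted p = 0.0422) and Ndufv1 at 0.30 (SE 0.10, adjusted p = 0.0396), and both calls were lost without R1W replicate 2 or 3, among other libraries. Both were also lost in a fit on the 2 groups compared. Ndufa10 lost its call after rescaling, at 0.41, and with a replicate block, at 0.34, whereas Ndufv1 kept its call in both. The nuclear count rested on single R1W libraries: without replicate 2 it was 35 lower and 0 higher, and without replicate 3 it was 0 in both directions. Without replicate 3, 0 mt- genes as deposited were called. The difference between the mt- and the nuclear genes was not tested.

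Promoters of the nuclear genes were searched for the motifs of factors known to bind respiratory-chain genes. Of the 81 genes 65 had a RefSeq promoter by symbol (GRCm38.p6), and the 250 bases before the start site were read on both strands. NRF1, nuclear respiratory factor 1, has the motif GCATGCGC, which was found in 8 of 65 members (12.3%), in 4.76% of 10130 other protein-coding genes of the table and in 2.56% of all 27025 genes with a promoter. The ETS motif CCGGAAG, bound by GABPA (nuclear respiratory factor 2), was found in 12 members (18.5%) and in 15.2% of the other protein-coding genes. The estrogen-related receptor motif TCAAGGTCA and the YY1 motif AAGATGGC were found in 1 member each, against 0.306% and 2.28% of the other genes. The 30 bases around the NRF1 match are shown for 3 members that were lower in UUO7 after rescaling, with the motif in capitals, 5′ to 3′ on the strand of the gene. In Atp5k the match was found on both strands and the capitals mark the motif as read on the opposite strand.
Sdhb, chr4:140961206-140961235, plus strand: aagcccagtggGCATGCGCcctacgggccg
Ndufa6, chr15:82354356-82354385, minus strand: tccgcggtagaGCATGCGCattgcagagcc
Atp5k, chr5:108434431-108434460, minus strand: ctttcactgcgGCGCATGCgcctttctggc
The rescaled log2 difference in UUO7 had a median of -0.85 over the 18 members with an NRF1 or ETS match and of -0.99 over the 47 members without either. A match is a run of letters and no measure of binding.

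Other genes of the pathway were taken from lists of their roles, and their counts in UUO7 stand beside 17.8% of all genes lower and 60.1% higher on the deposited scale, and 36.5% in each direction after rescaling. Of 8 electron carrier and inhibitor genes 6 were lower and 1 higher in UUO7 than in Sham, and 7 and 0 after rescaling. Cyc1, the haem-bearing cytochrome c1, fell by 1.00 (adjusted p = 4.3e-08) and Cycs, cytochrome c, by 0.65 (adjusted p = 7.2e-06), from 57.1 to 36.4 FPKM in the group means. Atpif1, the inhibitor of ATP synthase, was the higher gene, at 0.39 (adjusted p = 0.0031), and after rescaling it stood at -0.10 and was not called (adjusted p = 0.512). Of 45 assembly factors 20 were lower and 10 higher, with a median of -0.09, and after rescaling 36 were lower and 1 higher. Acad9, a complex I assembly factor, fell by 1.10 (adjusted p = 1.2e-08) and Uqcc1, a complex III assembly factor, by 1.55 (adjusted p = 5.2e-08), whereas Uqcc2, its partner, rose by 1.01 (adjusted p = 3.9e-08). Of 15 outer membrane and import genes 8 were lower and 4 higher, and 12 and 0 after rescaling.

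Of 17 genes that copy and transcribe mitochondrial DNA 4 were lower and 7 higher in UUO7, with a median of 0.09, and after rescaling 10 were lower and 2 higher, with a median of -0.33. Lrpprc, which stabilises mt- messenger RNA, fell by 0.66 (adjusted p = 8.3e-08). Tfam, which packages and transcribes mitochondrial DNA, stood at 38.5, 40.6, 40.1 and 39.1 FPKM in Sham and at 36.5, 29.8, 31.2 and 29.4 FPKM in UUO7, without overlap, and fell by 0.32 (adjusted p = 0.0045). Polg, the mitochondrial DNA polymerase, was higher by 0.68 (adjusted p = 3.1e-07). Of 14 regulators 7 were lower and 5 higher, and 8 and 5 after rescaling. Ppargc1a, the coactivator PGC-1alpha, stood at 7.99, 8.80, 9.07 and 10.3 FPKM in Sham, 4.60, 4.89, 4.96 and 5.17 FPKM in UUO7 and 8.15, 8.19, 7.31 and 8.88 FPKM in R4W. UUO7 lay below both other groups, with a fall of 0.76 from Sham (adjusted p = 2.4e-05), and R4W overlapped Sham on the deposited scale, at -0.13 (adjusted p = 0.38). After rescaling Ppargc1a was called lower in R4W, at -0.47 (adjusted p = 0.00497). Of the 14 regulators 2 were lower and 7 higher in R4W on the deposited scale, against 11.6% and 54.8% of all genes. After rescaling 7 were lower and 4 higher, against 31.1% and 28.9%. In UUO7 against Sham Esrra, the receptor that Ppargc1a coactivates, fell by 0.61 (adjusted p = 9.4e-05), and Ppara fell by 1.77 (adjusted p = 1.1e-06). Myc, known to drive growth programmes, rose by 3.22 (adjusted p = 3.3e-09) and Epas1, a hypoxia-inducible factor, by 0.87 (adjusted p = 1.1e-08).

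Markers of several cell types also differed between the groups, not all of them in step with these genes. The summed FPKM of 10 proximal tubule markers lay between 39085 and 51909 in Sham, 10982 and 16852 in UUO2, 9651 and 17097 in UUO7, 14602 and 27060 at R1W, 19414 and 34363 at R2W, and 22249 and 31891 at R4W. Of the 10 markers 9 were lower than in Sham in UUO2, 10 in UUO7 and 8 in R4W, against 17.0%, 17.8% and 11.6% of all genes. The sum is carried by the most abundant markers. Over the 10 markers the median log2 difference from Sham was -1.04 in UUO2 (from -2.09 to 0.35), -2.07 in UUO7 (from -3.16 to -1.44) and -0.90 in R4W (from -1.06 to -0.11). Within R2W, replicates 1 and 3 had the lower proximal tubule sums, 19414 and 20336 FPKM, and also the lower mt- scores, 12.51 and 12.54, against 13.02 and 12.93. In UUO2 replicates 1 to 4 the sums were 11059, 16852, 12939 and 10982 FPKM and the mt- scores 13.37, 13.30, 13.49 and 13.12, so the lowest of each was replicate 4 and the highest sum did not have the highest score. In UUO7 replicates 1 to 4 the sums were 15320.5, 17097, 13792 and 9651 FPKM. The mt- scores there were 11.96, 12.06, 11.93 and 11.77, in the same order. Replicate 2 was lowest in both in Sham and in R1W, and replicate 4 highest in both in R4W. At the other end of the order these groups did not match. All 6 macrophage markers and all 8 fibroblast and pericyte markers were higher in UUO7 and in R4W than in Sham, and after rescaling this held but for 1 fibroblast and pericyte marker in R4W (7 of 8 higher). The macrophage sum lay between 48.7 and 81.9 FPKM in Sham and between 937 and 1126 FPKM in UUO7. Of the 4 thick ascending limb markers 3 were lower and 1 higher in UUO7, and 0 were lower and 1 higher in R4W. Of the 6 distal tubule and collecting duct markers 5 were lower in UUO7, and 0 were lower and 1 higher in R4W, where 11.6% of all genes were lower. After rescaling 3 thick ascending limb and 6 distal markers were lower in UUO7. In R4W 0 of either list were then called lower, with medians of -0.30 and -0.19, where 31.1% of all genes were lower. All 4 endothelial, 4 podocyte, 5 urothelial and 4 lymphocyte markers were higher in R4W than in Sham, and 3, 3, 2 and 4 of them in UUO7. After rescaling these counts were 3, 4, 5 and 4 in R4W and 3, 1, 1 and 4 in UUO7. The first counts are on the deposited scale, where 54.8% of all genes were higher in R4W and 60.1% in UUO7. The part of these cell types in the results was not tested.

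In the authors' deposited table, 75 of the 80 nuclear genes with an adjusted p were lower in UUO7 than in Sham at a value under 0.05, and 3 were higher. Of all 14594 genes with an adjusted p there, 5529 were lower and 5231 higher. In R4W against Sham the authors' deposited table has 75 lower and 2 higher, beside 5083 lower and 4512 higher of all 14621 genes. For the mt- genes the authors' deposited table has 13 of 13 lower in UUO7, in R2W and in R4W, 12 in R1W, and 9 of 13 higher in R1W than in UUO7. Of all genes there, 5163 of 14573 were lower in R2W and 4957 of 14560 in R1W. In R1W against UUO7, 1494 of 14504 were higher. In UUO2 against Sham the authors' deposited table has 58 nuclear genes lower and 2 higher, more lower genes than the 36 and 41 called here. Of all 14588 genes with an adjusted p in that comparison, 3553 were lower and 3889 higher. There the authors' deposited table has 9 mt- genes lower and 2 higher, with no copies added.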

How the data were processed

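PolyA RNA of 24 kidneys was sequenced in single libraries, 4 per group, each from a separate animal per the labels. The submitters' design text names 10 animals per group before selection, and the part of that selection in the spread within groups was not tested. The submitters' processing notes name FastQC, Bowtie2, RSEM, DESeq2 and mm10, with no role or order. The deposited values are taken as FPKM, a unit read from their behaviour: column sums lay between 717415 and 830179, whereas sums weighted by transcript length differed by 1.08 times at most. How the authors assigned reads shared by several genes is not given in the sources used here, and read depth per library is unknown because FPKM holds no counts. The authors' deposited table also holds log2 fold changes and adjusted p-values, which were used only where named.

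Values were put on the scale log2(FPKM + 1), which understates changes of low genes, and fitted with limma 3.58.1 (R 4.3.3, trended variance) over all 24 libraries, with 1 coefficient per group. Two-sided p-values were adjusted by Benjamini-Hochberg over all 14785 genes, and a gene was called at an adjusted p under 0.05. All adjusted p-values in the text come from limma unless the authors' table is named. The smallest gene mean was 1, so no further filter was set. The fit was tested on simulated data with known answers. Transcripts of GENCODE (GRCm38) and RefSeq promoters (GRCm38.p6) gave the sequences.

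The members and lists were chosen with earlier results of these data known. Genes were named by rule: every mt- gene, the nuclear gene with the lowest and highest difference in UUO7 for each complex, pairs of related forms, 9 core subunits, and members called against the direction of most. Alternatives were rescaling, a filter at a mean of 10, other fits, and leaving out each library. Same-numbered animals are not paired by the labels.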

Additional observations from a re-analysis of the deposited data

Results flagged for a closer look

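Within groups of 4, 1 library stood apart from the other 3 in 10 of 120 checks on 20 measures (Dixon's test), where chance flags about 1 in 20 groups, or 6 here. Among the scores, nuclear complex IV was 7.417 in R4W replicate 1 against 7.115 to 7.136 in the others, and nuclear complex V was 8.291 in R1W replicate 2 against 8.575 to 8.631. Cox8b was 15.32 FPKM in Sham replicate 2 against at most 0.41, 0.47 FPKM in UUO7 replicate 3 against 0, and 72.18 FPKM in R4W replicate 1 against at most 3.5. Cox8b is 1 of the 18 genes in the nuclear complex IV score. All 3 libraries had the highest summed adipose markers of their groups. Cox6b2 was 77.24 FPKM and Cox7a1 26.77 FPKM in UUO7 replicate 3, against 63.23 to 64.37 and 21.3 to 21.81 FPKM. Cox7a1 was 33.7 FPKM in R4W replicate 3 against 44.21 to 45.45 FPKM. In R2W replicate 1, Cox4i2 was 3.3 FPKM against 1.92 to 2.12 FPKM and Ndufa4l2 was 12.75 FPKM against 6.44 to 7.36 FPKM.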

How the results depend on the processing

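Of the values recomputed for called counts and scores, leave-one-out values aside, 136 kept within their limits and 32 moved. A log2 change of at least 1 on the deposited scale was also required, and the share of all genes at this limit is not given here. Against Sham the nuclear count was then 1 in UUO2 (higher) and 7 in UUO7 (5 lower, 2 higher). It was 2 in R1W and 2 in R2W (all higher) and 0 in R4W. It was 0 in R1W against UUO7 and 0 in R4W against R1W. The mt- count, as deposited, was then 3 in R1W (all lower), 0 in R2W and 0 in R4W against Sham. It was 0 in R1W against UUO7 and 0 in R4W against R1W. Rescaling gave 73 nuclear genes in R1W and 77 in R2W against Sham, and 3 in R4W against R1W. It also turned Ndufa7 (-0.15) and Cox7a2l (-0.11) in UUO7 against Sham. Rescaled nuclear scores minus Sham were -0.34 in UUO2, -0.86 in UUO7, -0.60 in R1W, -0.60 in R2W and -0.64 in R4W. Rescaled mt- scores with copies were -2.01 in UUO7, -1.33 in R1W, -1.09 in R2W and -0.95 in R4W, and the median over the members gave -1.67 in UUO7. With copies added the mt- count in UUO2 was 1, and 3 after rescaling; mt-Co2 turned to -0.14 and -0.28 and mt-Co3 to -0.10 and -0.24. A fit on the 2 groups compared gave 15 nuclear genes in R1W against UUO7, with fewer samples in the fit. In R4W against R1W it gave 1 nuclear gene and 0 mt- genes as deposited. Placing R4W replicate 2 in R2W gave 8 nuclear genes in R4W against R1W. For the other moves the cause was not tested.

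Leaving out 1 library at a time, the nuclear count against Sham ranged from 31 to 40 in UUO2, 56 to 68 in UUO7, 33 to 44 in R1W, 32 to 59 in R2W and 49 to 64 in R4W. It ranged from 14 to 52 in R1W against UUO7 and from 0 to 35 in R4W against R1W. The mt- count here is of the genes as deposited, and no library was left out with copies added. It ranged from 6 to 7, 12 to 12, 11 to 12, 11 to 12 and 10 to 11 against Sham in the same order. It ranged from 7 to 10 in R1W against UUO7 and from 0 to 2 in R4W against R1W. Both counts take either direction. In UUO2 with all libraries 4 mt- genes were lower and 2 higher, mt-Co2 and mt-Co3. In R4W against R1W the nuclear count was 8 without R1W replicate 4, 7 without R4W replicate 1, 2 or 3 and 6 without R4W replicate 4, and the mt- count was 1 without R4W replicate 4. mt-Co2 as deposited in UUO7 against Sham ranged from -0.23 without UUO7 replicate 3 to 0.088 without UUO7 replicate 4.

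Same-numbered libraries share only a number: the mean correlation of their deviations lay between -0.24 and 0.17, and in 0 comparisons was every pair over 0.1. A replicate block gave 9 nuclear genes in R4W against R1W in place of 14, and moved no other count by over 1.5 times.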
